A study of Mus musculus with 6 samples.

Results

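The 42 genes described here encode the proteins that bring glucose into the cell and burn it: the transporters Slc2a1, Slc2a4 and Slc16a1, 15 enzymes of glycolysis, 2 enzymes that set the activity of phosphofructokinase, 2 subunits of lactate dehydrogenase, 4 enzymes of glycogen metabolism, 4 genes of the pyruvate dehydrogenase step and 12 genes of the tricarboxylic acid (TCA) cycle. They were chosen by name and not by a rule on their values, though with earlier results of these data known, among 45786 genes and transcripts with an entry. Left ventricles of male mice aged 10 weeks were subjected to RNA immunoprecipitation and sequencing (RIP-seq) with an antibody against EZH2, the enzyme of the Polycomb repressive complex that methylates histone H3 on lysine 27, or with normal IgG as the background of the method. Angiotensin II (AngII), a peptide hormone that raises blood pressure and induces cardiac hypertrophy, was infused by a subcutaneous minipump at a labelled rate of 1 mg/kg/min for 4 h or 24 h, and Sham mice received saline. The 3 groups (Sham, AngII 4 h and AngII 24 h) had 2 mice each, and each gave an IgG and an anti-EZH2 library, so that there were 6 libraries and 1 library per group and antibody. The labels name the strain C57BL/6 for 4 libraries, and C57BL/7 and C57BL/8 for the anti-EZH2 libraries of AngII 4 h and AngII 24 h. No genotype other than the strain is given, and no group carries a transgene or deletion in the labels.

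Every library was a mixture of 2 RIP products, and the antibodies were applied to hearts of the same group. Each group is therefore 1 sample, differences between AngII and Sham have no replicate check, and the antibody difference could be tested over the 3 groups only. Levels are given in FPKM, the number of fragments of a transcript corrected for its length and for the depth of the library. Between 3809906 and 7970502 fragments per library were recovered from the steps of low FPKM values. Intervals quoted with ratios cover 95% of the counting error of the fragments, and say nothing of the variation between mice. In bulk tissue, more RNA per cell and more cells of a type cannot be told apart.

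Glycolysis splits glucose into pyruvate in the cytosol. Pyruvate is either reduced to lactate or taken into the mitochondrion, where pyruvate dehydrogenase turns it into acetyl-CoA for the TCA cycle. The adult heart draws most of its energy from fatty acids and shifts towards glucose under load, and several steps of the pathway are carried by a muscle isoform and by an isoform found in most tissues. Hexokinase traps glucose in the cell, phosphofructokinase commits it to glycolysis, and glycogen synthase and glycogen phosphorylase store and release it.

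Promoter sequences are shown for 2 pairs of genes. Pgam2 and Pgam1 encode the muscle and the widespread form of phosphoglycerate mutase, the pair whose levels differed by 9.41 to 20.9 times within a library. Hk2, the insulin-regulated hexokinase of muscle, and Gys1, the glycogen synthase of muscle, were the 2 genes past 1.5-fold higher after AngII in both antibodies at both times. The 250 bases before the first listed start are from RefSeq (GRCm38.p6), in the direction of the gene, with each CG dinucleotide in capitals.

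Pgam2, chr11:5803797-5804046, minus strand: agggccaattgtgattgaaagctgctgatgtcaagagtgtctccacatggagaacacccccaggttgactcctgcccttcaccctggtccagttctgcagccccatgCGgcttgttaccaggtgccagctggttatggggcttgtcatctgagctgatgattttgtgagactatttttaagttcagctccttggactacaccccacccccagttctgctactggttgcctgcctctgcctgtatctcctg

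Pgam1, chr19:41911621-41911870, plus strand: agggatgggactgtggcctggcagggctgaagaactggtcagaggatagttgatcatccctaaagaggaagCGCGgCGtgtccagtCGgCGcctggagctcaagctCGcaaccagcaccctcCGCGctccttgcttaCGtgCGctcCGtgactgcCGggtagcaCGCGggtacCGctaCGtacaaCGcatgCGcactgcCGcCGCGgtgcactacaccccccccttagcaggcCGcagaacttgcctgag

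Hk2, chr6:82774455-82774704, minus strand: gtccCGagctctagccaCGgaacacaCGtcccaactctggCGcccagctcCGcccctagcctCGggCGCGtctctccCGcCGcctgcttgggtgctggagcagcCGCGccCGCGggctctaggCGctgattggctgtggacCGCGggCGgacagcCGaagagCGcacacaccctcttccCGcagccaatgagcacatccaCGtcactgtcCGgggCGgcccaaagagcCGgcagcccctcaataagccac

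Gys1, chr7:45434589-45434838, plus strand: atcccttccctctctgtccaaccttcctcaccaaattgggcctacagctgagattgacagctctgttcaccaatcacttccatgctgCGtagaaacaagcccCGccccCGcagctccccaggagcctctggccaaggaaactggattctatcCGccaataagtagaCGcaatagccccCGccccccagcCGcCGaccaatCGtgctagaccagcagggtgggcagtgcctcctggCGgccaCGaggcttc

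A promoter was found for 40 of the 42 genes, and 29 of these had 1 listed start. The others were counted at the first listed start alone, and whether that start is used in heart was not tested. The Pgam2 window held 1 CG dinucleotide and the Pgam1 window 22, while the Hk2 window held 25 and the Gys1 window 11. The median was 14.5 over the 40 genes and 6 over 27025 promoters of all genes, with a GC content of 59.6% against 52%. These promoters, which are also the comparison for the motifs below, were not limited to genes expressed in the libraries. A difference from other expressed genes was not tested. Among genes described here as muscle forms, the counts ran from 0 to 25, and whether these genes are restricted to muscle was not examined. Aldoa, the muscle aldolase, had 0, Pfkm, the muscle phosphofructokinase, 2, Eno3, the muscle enolase, 3, and Pygm, the muscle glycogen phosphorylase, 4, whereas Pkm, the pyruvate kinase of muscle, had 21 and Ldha, the muscle subunit of lactate dehydrogenase, 25. Hk1, the hexokinase of most tissues, had 1, and Slc16a1, a transporter of lactate and pyruvate, had the most, 37. Short motifs were searched on both strands. The GC box GGGCGG was present in 22 of the 40 (55%, against 32.9% of all promoters) and the CCAAT box in 18 (45% against 34.5%). ACGTG, the core of the hypoxia response element, was in 14 (35% against 16.6%), and the E-box CACGTG, which contains ACGTG, in 4 (10% against 6.05%). The nuclear receptor half-site AAGGTCA was in 1 (2.5% against 4.05%), the TATA box TATAAA in 0 (0% against 13.0%). The Gys1 window held CCAAT 4 times and the Hk2 window ACGTG 2 times and CCAAT 2 times.

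The labelled tissue was checked with marker genes before the comparisons were made. The summed FPKM of 10 cardiomyocyte markers was between 5791 and 10106 in a library, against 49.4 to 73.7 for 6 fibroblast markers and 13.1 to 30.2 for 6 endothelial markers. Of 6 adipocyte markers 3 were listed at 0 in all libraries, and their sum was at most 0.754. The libraries differed in other respects. Mitochondrially encoded RNAs made up between 6.73% and 13.9% of the FPKM in 5 libraries and 31.3% in the AngII 24 h anti-EZH2 library. These are shares of the summed FPKM, which are per length, and not shares of reads. Myl7, an atrial light chain, was at 14.3 and 12.2 FPKM in the Sham libraries and at most 0.491 in the AngII libraries, and the sum of 4 atrial markers was 29.6 to 44.0 against 5.36 to 11.7 (Sln was listed at 0 throughout). Of 8 skeletal muscle markers, Mylpf was at 34.7 FPKM in the AngII 24 h IgG library, where the others were listed at 0, and the sum was at most 1.17 in the other libraries.

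The levels of the 42 genes covered the range from abundant enzymes to transcripts near the limit of detection. Mdh1, the cytosolic malate dehydrogenase, had the highest mean, with an FPKM of 199.9 in Sham, 258 at 4 h and 232 at 24 h for IgG and 137, 249 and 152 for anti-EZH2. Aldoa followed with 174, 238 and 237 for IgG and 139.8, 239 and 185 for anti-EZH2. The third was Gapdh, which carries the oxidation step of glycolysis, with 152, 281 and 239 and with 154, 209.7 and 176. In each of these genes the 2 Sham libraries were below the AngII 4 h library of the same antibody. At the other end were Slc2a1, the glucose transporter of most tissues, with a mean of 0.785 FPKM, and Pfkfb1, with 0.996. The other 40 genes had a mean of at least 1 FPKM, as 8636 entries of the tables did. For 23 genes the deposited interval was as narrow as that of at least 100 fragments in the median library, and for 8 genes it was as wide as that of under 20 fragments. These 8 were Pfkfb1, Slc2a1, Gbe1, Pfkp, Pfkl, Hk1, Pdk1 and Gys1.

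**Figure D1:**
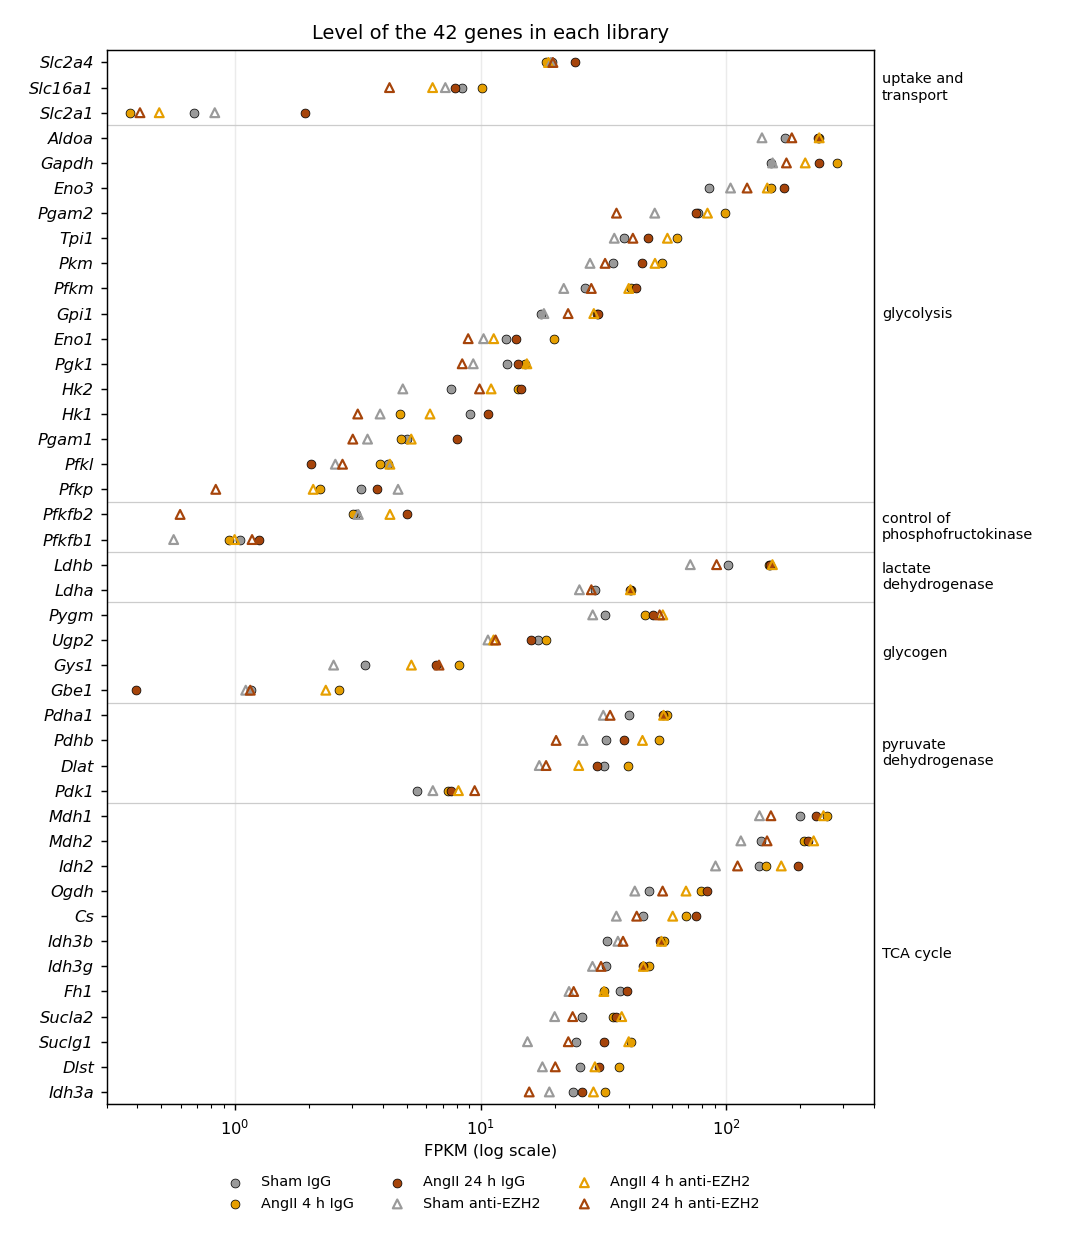
FPKM (log scale) of the 42 genes in the 6 libraries, by step of the pathway. Circles are IgG and triangles anti-EZH2 libraries, grey is Sham, orange AngII 4 h and brown AngII 24 h; Pfkm, Pgam2, Eno3 and Ldhb lie to the right of Pfkl, Pfkp, Pgam1, Eno1 and Ldha, the points of Hk1 and Hk2 overlap, and Slc2a1, Pfkfb1 and Gbe1 are the genes around 1 FPKM.

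At most steps with more than one isoform, the form typical of heart and muscle was the more abundant in all 6 libraries. Glucose uptake was represented by Slc2a4, the insulin-responsive transporter, with an FPKM of 19.6, 18.5 and 24.1 in the IgG libraries (Sham, 4 h and 24 h) and 19.3, 18.9 and 19.7 in the anti-EZH2 libraries. Slc2a1 was at 0.680, 0.374 and 1.93 and at 0.827, 0.491 and 0.410, so that the ratio Slc2a4/Slc2a1 was between 12.5 and 49.6. Slc2a4 varied less between libraries than the glycolytic enzymes, with 18.5 as its lowest and 24.1 as its highest value. This did not hold in the separately scaled table of the whole series. There Slc2a4 ran from 6.53 to 18.7 and the glycolytic gene Pgk1 from 3.32 to 5.17.

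Phosphofructokinase was mostly Pfkm, with 26.5, 41.0 and 43.0 FPKM for IgG and 21.8, 40.1 and 28.2 for anti-EZH2. The liver form Pfkl was at 4.22, 3.90 and 2.04 and at 2.56, 4.27 and 2.74. The platelet form Pfkp was at 3.26, 2.22 and 3.78 and at 4.61, 2.08 and 0.835. Pfkm was 6.29 to 21.1 times as high as Pfkl and 4.73 to 33.8 times as high as Pfkp. The upper end of both ranges came from a 24 h library in which the minor form was at its lowest value.

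In the lower part of glycolysis, Pgam2 was at 76.8, 99.1 and 75.2 FPKM for IgG and at 51.1, 83.9 and 35.7 for anti-EZH2. Pgam1 was at 5.03, 4.75 and 7.99 and at 3.46, 5.22 and 3.02. Eno3 was at 85.1, 152 and 172 and at 104, 147 and 122, against 12.7, 19.96 and 13.9 and 10.3, 11.3 and 8.90 for Eno1, the widespread enolase. Eno3 was thus 6.72 to 13.7 times as high as Eno1. Ldhb, the heart subunit of lactate dehydrogenase, was at 101, 149.9 and 150.4 and at 71.4, 154 and 91.4, and Ldha, the muscle subunit, at 29.2, 41.1 and 40.7 and at 25.2, 40.7 and 28.2. The ratio Ldhb/Ldha had the narrowest range of the 8 pairs, from 2.83 to 3.79.

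Hexokinase was the step without a constant order. Hk2 was at 7.57, 14.2 and 14.6 FPKM for IgG and at 4.82, 11.03 and 9.90 for anti-EZH2. Hk1, the hexokinase of most tissues, was at 9.05, 4.69 and 10.7 and at 3.90, 6.22 and 3.16. The ratio Hk2/Hk1 was 0.837 in the Sham IgG library and 1.24 in the Sham anti-EZH2 library, and between 1.36 and 3.13 in the AngII libraries. The interval of the ratio Hk1/Hk2 included 1 in both Sham libraries and in the AngII 24 h IgG library, where it ran from 0.432 to 1.25. The 2 bifunctional enzymes that make and remove fructose 2,6-bisphosphate, the activator of phosphofructokinase, were low. Pfkfb2, the heart form, was at 3.12, 3.02 and 5.04 and at 3.18, 4.27 and 0.598, and Pfkfb1, the liver and muscle form, at 1.05, 0.943 and 1.26 and at 0.563, 0.996 and 1.17. The order of this pair was turned in the AngII 24 h anti-EZH2 library, where Pfkfb2 was at its lowest value, though the interval of the ratio there ran from 0.531 to 7.27 and included 1.

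**Figure D2:**
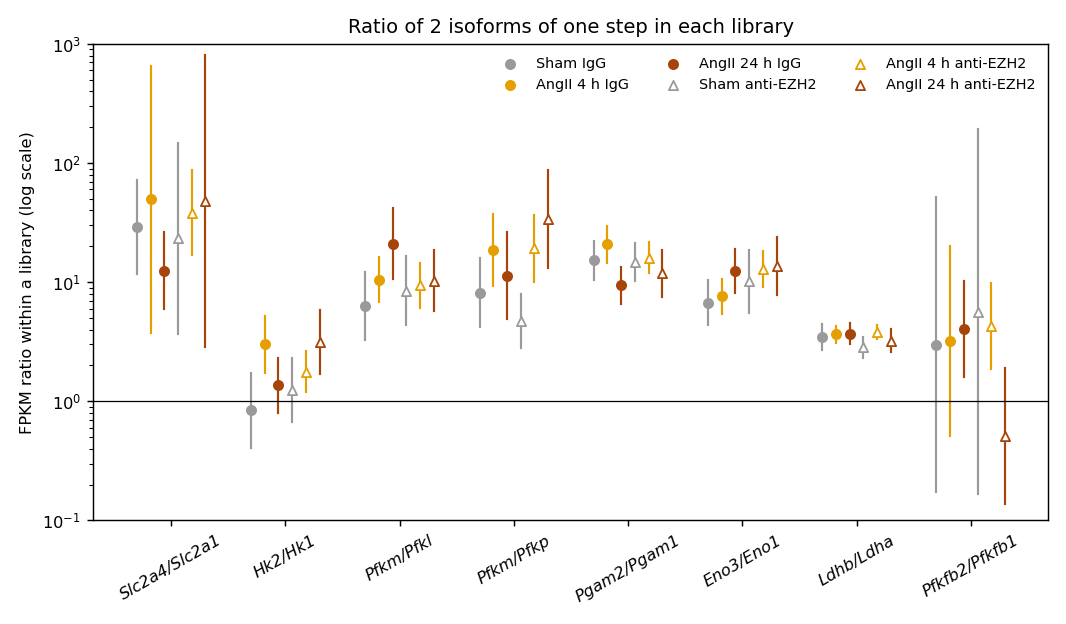
FPKM ratio of 2 isoforms of one step within each library (log scale), with the 95% counting interval of the ratio as a vertical line. The points of Pfkm/Pfkl, Pfkm/Pfkp, Pgam2/Pgam1, Eno3/Eno1, Ldhb/Ldha and Slc2a4/Slc2a1 lie above 1 in all libraries, and those of Hk2/Hk1 and Pfkfb2/Pfkfb1 on both sides of it.

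Some of these genes have many processed pseudogenes, whose copies can take or give reads. Copies with at least 90% identity over at least 50% of the pseudogene were found for 13 of the 42 genes, 236 copies in all, of which 187 belonged to Gapdh. The FPKM summed over the Gapdh copies was 102.5% to 138.6% of the value of Gapdh itself. It was 48.7% to 80.4% for Pgam1, 40.1% to 77.5% for Pgk1, 20.7% to 37.0% for Tpi1 and 13.7% to 24.1% for the single Ldhb copy. FPKM are per length and many copies are short, so these sums are not shares of reads, and the level of these genes is uncertain by what was assigned to their copies. With the copies added to the minor form, Pgam2/Pgam1 was 6.33 to 13.7, Eno3/Eno1 6.20 to 12.9 and Ldhb/Ldha 2.63 to 3.66. For 10 of the 252 values (Pgam2 in 5 libraries, Mdh1 in 3, Eno3 and Idh2 in 1 each), the deposited FPKM lay outside its own deposited interval.

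The comparison of anti-EZH2 with IgG asks whether a transcript was recovered by the EZH2 antibody above the background of the method. None of the 42 genes was past 2-fold higher in the anti-EZH2 library in any group, where 9.38% (Sham), 8.19% (4 h) and 5.48% (24 h) of the 8636 genes tested were. Past 2-fold lower were 1 of 42 in Sham (10.5% of all genes), 0 at 4 h (6.54%) and 6 at 24 h (22.0%). Differences here are on the scale of log2(FPKM + 1), which understates the change of low genes. A mean of at least 5 FPKM was reached by 35 of the 42 genes and by 2956 of the 8636. The shares of all genes were not matched for level, and the part of level in these differences from the share was not tested. The median log2 difference of the 42 genes was -0.30 in Sham, -0.05 at 4 h and -0.56 at 24 h, and that of all genes tested was -0.16, -0.06 and -0.44. Relative to the median of all genes, 0, 0 and 2 genes were past 2-fold lower (7.32%, 5.78% and 11.2% of all genes) and 0, 0 and 1 past 2-fold higher (11.4%, 8.93% and 10.4%). Below 0 in all 3 groups were 20 of 42 genes (28.3% of all genes), and 13 relative to the median (15.4%).

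The gene past 2-fold lower in Sham was Hk1, with a log2 difference of -1.04, whose ratio of 0.431 had an interval of 0.179 to 1.03. At 24 h Hk1 was again lower (-1.49), and the other 5 were Pfkfb2 (-1.92), Pfkp (-1.38), Pgam1 (-1.16), Slc2a1 (-1.05) and Pgam2 (-1.05). The Pfkfb2 ratio was 0.119, with an interval of 0.0435 to 0.324. The Pgam2 ratio was 0.475 (0.354 to 0.638) and the Pgam1 ratio 0.378 (0.230 to 0.620). The deposited FPKM intervals of the 2 libraries were apart for these 3 genes, and overlapped for Hk1, Pfkp and Slc2a1. The means of these genes were between 0.785 and 6.29 FPKM, except for Pgam2 with 70.3. Relative to the median of all genes Hk1 (-1.05) and Pfkfb2 (-1.48) remained past 2-fold. Gbe1, the glycogen branching enzyme, was the gene past 2-fold higher on that scale (1.07), from an IgG value of 0.396 FPKM, and the interval of its ratio included 1. The AngII 24 h anti-EZH2 library was the one with 31.3% of its FPKM in mitochondrially encoded RNAs, and the part of this in the lower values was not tested.

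Over the 3 groups, the difference was tested by limma with the group as a block. None of the 40 genes with a mean of at least 1 FPKM passed a Benjamini-Hochberg adjusted p of 0.05, and the smallest adjusted p among them was 0.663. Of the 8636 genes 2 passed, both higher with anti-EZH2 (0.0232%). Without adjustment, 1 of the 40 had a p under 0.05 and was lower, against 4.48% of all genes. It was Dlat, the acetyltransferase of the pyruvate dehydrogenase complex, with a log2 difference of -0.72 (SE 0.25, limma adjusted p = 0.663). Dlat was at 31.9, 39.6 and 29.8 FPKM for IgG and at 17.3, 25.1 and 18.5 for anti-EZH2, lower in 3 of 3 groups. The fitted difference was below 0 for 37 of the 40 genes (71.6% of all genes), with a median of -0.35, where the median of all genes was -0.24. Relative to the median of all genes it was below 0 for 31 (52.5%). In the table of the whole series the direction turned, with a median of 0.08 and 15 of 38 genes below 0 (43.8%). As a share of the summed FPKM of a library, the genes described here were lower with anti-EZH2 in Sham only. The share there was 0.0811% for IgG and 0.0733% for anti-EZH2. It was 0.126% and 0.139% at 4 h, and 0.117% and 0.156% at 24 h, higher with anti-EZH2 at both times. This share also depends on the FPKM of all other entries, and its difference was not tested.

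**Figure D3:**
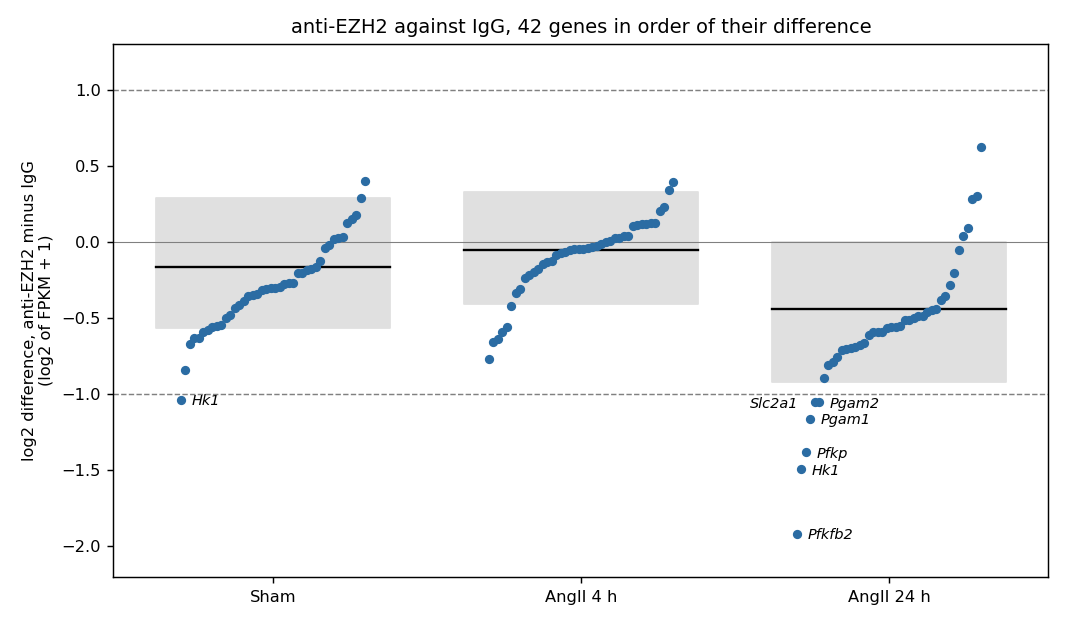
Log2 difference of FPKM + 1 between the anti-EZH2 and the IgG library in Sham, AngII 4 h and AngII 24 h, with the 42 genes in order of their difference. The black line is the median and the grey band the middle 50% of the 8636 genes tested, dashed lines mark 2-fold, and the genes named are those past it, 1 in Sham, 0 at 4 h and 6 at 24 h.

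The comparison of AngII with Sham asks whether the levels of the pathway were altered at 4 h and 24 h of infusion, and it was made in the IgG and in the anti-EZH2 libraries separately. Both antibodies were applied to hearts of the same group, and whether these were the same hearts is not stated. The 2 comparisons at a time are therefore not taken as independent, and the 2 times share their Sham libraries. Past 1.5-fold higher at 4 h were 14 of 42 genes in the IgG libraries (24.3% of the 8636 genes tested) and 24 in the anti-EZH2 libraries (29.3%). At 24 h the counts were 12 (26.9%) and 3 (16.4%). Past 1.5-fold lower were 1 (14.5%) and 1 (13.0%) at 4 h, and 2 (14.1%) and 3 (25.1%) at 24 h. The median log2 difference of the 42 genes was 0.49 (IgG) and 0.67 (anti-EZH2) at 4 h, and 0.42 and 0.15 at 24 h. For all genes tested it was 0.14 and 0.25 at 4 h and 0.16 and -0.06 at 24 h. Relative to this median, the genes past 1.5-fold higher were 7 (18.7% of all genes) and 10 (17.1%) at 4 h and 5 (20.7%) and 3 (18.3%) at 24 h. Those past 1.5-fold lower were 1 (18.0%) and 1 (19.3%), and 2 (18.8%) and 2 (22.9%).

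In both antibodies, 10 of 42 genes were past 1.5-fold higher at 4 h (8.72% of all genes) and 0 past 1.5-fold lower (3.68%), and at 24 h 3 were higher (5.41%) and 0 lower (5.15%). Relative to the median of all genes, these counts were 1 (4.30%) and 2 (4.82%) for higher, and 0 (5.64%) and 0 (6.19%) for lower. The counts for higher also depended on the table: in the table of the whole series, which was scaled separately, 3 genes were past 1.5-fold higher in both antibodies at 4 h and 21 at 24 h, where the median of all its genes differed by 0.44 and 0.46. The lesser measure of being above the median of all genes in both antibodies was met by 29 of 42 at 4 h (28.3% of all genes) and by 25 at 24 h (27.5%). The shares of all genes were not matched for level in the AngII comparisons either.

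The 10 cardiomyocyte markers differed in the same direction as the 42 genes. Their median log2 difference was 0.42 and 0.61 at 4 h and 0.41 and 0.15 at 24 h, in the IgG and anti-EZH2 libraries. When the differences were taken relative to these markers, an alternative chosen after the data were seen, 0 genes were past 1.5-fold higher in both antibodies at either time, 2 (Pfkp and Slc2a1) were past it lower at 4 h and 0 at 24 h. Fibroblast markers had medians of -0.63 and -0.10 at 4 h, and of -0.12 and -0.26 at 24 h. Endothelial markers had medians of -0.35 and 0.38 at 4 h and of -0.16 and -0.37 at 24 h. Those of 5 erythroid markers were -0.48 and -0.25 at 4 h and 0.61 and 0.24 at 24 h, and their summed FPKM was 920 in Sham, 625 at 4 h and 1454 at 24 h for IgG and 724, 587 and 809.99 for anti-EZH2. The summed level of 13 clock genes was 34.0 to 57.8 FPKM in a library. Per1, a clock gene, was at 2.24, 9.03 and 7.46 for IgG and at 4.77, 6.60 and 1.92 for anti-EZH2. The part of the cell type markers, of the atrial markers that set Sham apart and of the clock genes in these differences was not tested.

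**Figure D4:**
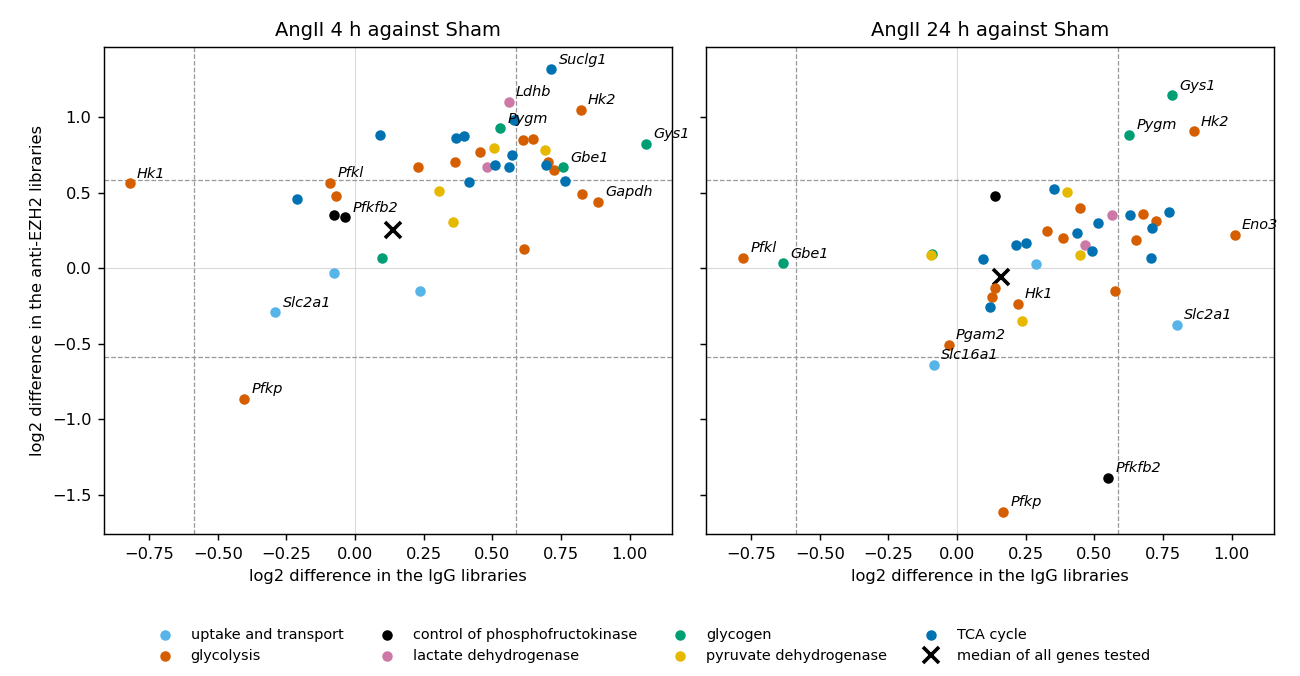
Log2 difference of FPKM + 1 between AngII and Sham in the IgG libraries (x axis) and the anti-EZH2 libraries (y axis), at 4 h (left) and 24 h (right), coloured by step of the pathway. Dashed lines mark 1.5-fold and the cross is the median of the 8636 genes tested; at 4 h 10 genes lie in the upper right corner and at 24 h Hk2, Gys1 and Pygm do.

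Of the 15 glycolytic enzymes, 11 were above 0 in both antibodies at 4 h, as were 41.5% of all genes tested, and 8 at 24 h, as were 29.0%. Hk2, whose levels are given above, was 1.87 times (interval 1.32 to 2.64) and 2.29 times (1.59 to 3.30) as high at 4 h as in Sham, and 1.93 times (1.36 to 2.73) and 2.05 times (1.42 to 2.96) at 24 h, in IgG and anti-EZH2. Both Sham libraries were below all 4 AngII libraries, and Hk2 was past 1.5-fold in all 4 comparisons. It was also so relative to the median of all genes. Gpi1, the isomerase that follows hexokinase, was at 17.7, 29.9 and 29.9 FPKM for IgG and at 18.1, 28.9 and 22.7 for anti-EZH2. Its log2 differences at 4 h were 0.73 and 0.65. Pfkm had log2 differences of 0.61 and 0.85 at 4 h and of 0.68 and 0.36 at 24 h.

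Tpi1, the triose phosphate isomerase, was at 38.2, 62.9 and 48.2 and at 35.01, 57.6 and 41.7 FPKM, and its 4 h difference was 0.70 in both antibodies. With its pseudogene copies added it was no longer past 1.5-fold in both. Pkm, the pyruvate kinase of muscle, was at 34.5, 54.6 and 45.4 and at 27.9, 51.3 and 32.1, with differences of 0.65 and 0.86 at 4 h. Both genes were highest in the 4 h library of each antibody. Gapdh differed by 0.89 and 0.44 at 4 h and by 0.65 and 0.19 at 24 h, and was thus past 1.5-fold in the IgG libraries at both times and not in the anti-EZH2 libraries. Hk1 differed in opposite directions at 4 h, by -0.82 in IgG and 0.56 in anti-EZH2, and the intervals of both ratios included 1. Pfkl was past 1.5-fold lower in the AngII 24 h IgG library (-0.78), and differed by 0.07 with anti-EZH2 at that time. Pfkp was lower in the anti-EZH2 libraries, by -0.86 at 4 h and -1.61 at 24 h, where the interval of its 24 h ratio of 0.181 ran from 0.0622 to 0.527. In the IgG libraries its differences were -0.40 and 0.17, with intervals that included 1.

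Of the 3 transporters, 0 were above 0 in both antibodies at 4 h (41.5% of all genes) and 1 at 24 h (29.0%). Slc2a4 differed by -0.08 and -0.03 at 4 h. Slc16a1 was at 8.42, 10.1 and 7.88 FPKM for IgG and at 7.18, 6.37 and 4.26 for anti-EZH2, and past 1.5-fold lower in the last (-0.64). Slc2a1 was past 1.5-fold higher in the AngII 24 h IgG library (0.80), from 0.680 to 1.93 FPKM, and its ratio of 2.84 had an interval of 0.923 to 8.72. Pfkfb2 was lower in the AngII 24 h anti-EZH2 library (-1.39) and at 0.55 in the IgG comparison at that time.

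Of the 3 genes past 1.5-fold higher in both antibodies at 24 h, where 5.41% of all genes were, 2 were glycogen enzymes. Gys1 was at 3.39, 8.15 and 6.56 FPKM for IgG and at 2.52, 5.22 and 6.77 for anti-EZH2. Both Sham values were below the 4 AngII values. The ratio to Sham was 2.41 (1.28 to 4.51) and 2.07 (1.18 to 3.64) at 4 h, and 1.94 (1.08 to 3.48) and 2.69 (1.37 to 5.25) at 24 h. The deposited FPKM intervals of Gys1 overlapped between Sham and AngII in both antibodies at both times. Pygm was at 32.2, 46.8 and 50.2 and at 28.6, 55.2 and 53.5 FPKM, with ratios of 1.46 and 1.93 at 4 h and 1.56 and 1.87 at 24 h. The Sham values were again the 2 lowest. Thus, as deposited, the RNAs of the enzyme that makes glycogen and of the enzyme that breaks it down were both higher in the AngII libraries. Relative to the median of all genes, Gys1 stayed past 1.5-fold in both antibodies at 24 h and not at 4 h. Pygm did so at neither time. Relative to the cardiomyocyte markers, neither gene was past 1.5-fold higher in both antibodies at either time. Gbe1 was at 1.16, 2.66 and 0.396 and at 1.11, 2.34 and 1.15, past 1.5-fold higher at 4 h in both antibodies (0.76 and 0.67), with intervals of the ratio that included 1. Ugp2, which makes the UDP-glucose used by glycogen synthase, was at 16.0 to 18.4 FPKM for IgG and at 10.7 to 11.5 for anti-EZH2, and was past 1.5-fold in none of the 4 comparisons.

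**Figure D5:**
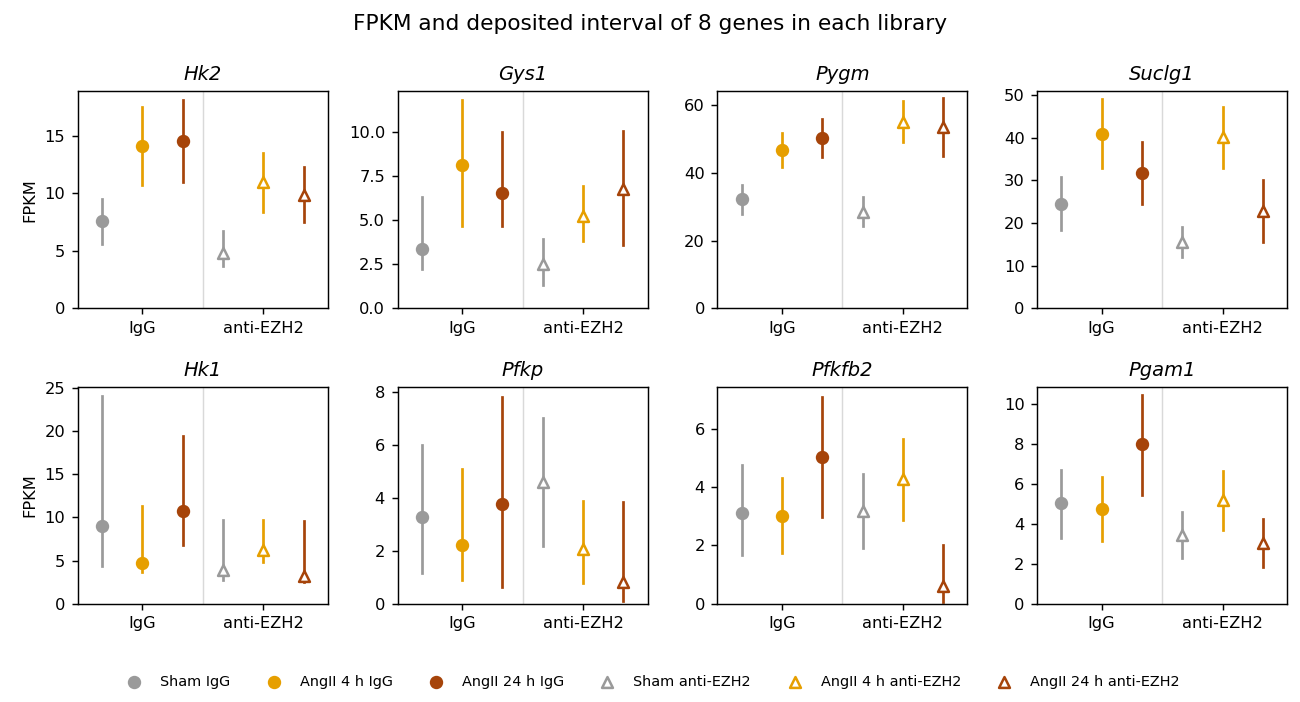
FPKM of 8 of the genes in the 6 libraries, with the deposited interval as a vertical line. Circles are IgG and triangles anti-EZH2 libraries, grey is Sham, orange AngII 4 h and brown AngII 24 h; Hk2, Gys1 and Pygm are lowest in the Sham library of each antibody, and Pfkfb2 and Pfkp are lowest in the AngII 24 h anti-EZH2 library.

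Both subunits of lactate dehydrogenase were above 0 in the 4 comparisons. Ldhb was past 1.5-fold in the anti-EZH2 libraries at 4 h (1.10), and its difference in the IgG libraries was 0.56 at 4 h and 0.56 at 24 h. Ldha differed by 0.67 in the anti-EZH2 libraries at 4 h. The 4 genes of the pyruvate dehydrogenase step were above 0 in both antibodies at 4 h (41.5% of all genes), and 2 of them at 24 h (29.0%). Pdhb, a subunit of the dehydrogenase itself, was at 32.5, 53.1 and 38.5 FPKM for IgG and at 26.1, 45.6 and 20.3 for anti-EZH2, with differences of 0.69 and 0.78 at 4 h. Its 24 h values lay on both sides of Sham (0.24 and -0.35). Pdk1, a kinase that inhibits pyruvate dehydrogenase, was at 5.52 to 9.46 FPKM and past 1.5-fold in none of the comparisons.

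Of the 12 TCA cycle genes, 11 were above 0 in both antibodies at 4 h (41.5% of all genes) and 11 at 24 h (29.0%). At 4 h, 2 of them were past 1.5-fold higher in both antibodies (8.72% of all genes). Relative to the median of all genes, neither of these remained so. Ogdh, a subunit of the 2-oxoglutarate dehydrogenase complex, was at 48.4, 78.9 and 83.4 FPKM for IgG and at 42.4, 68.6 and 55.1 for anti-EZH2. Its differences were 0.70 and 0.68 at 4 h and 0.77 and 0.37 at 24 h, with intervals of the ratios that excluded 1. Suclg1, a subunit of succinyl-CoA ligase, was at 24.5, 40.9 and 31.7 and at 15.5, 40.1 and 22.8. The anti-EZH2 difference of Suclg1 at 4 h, 1.31, was the largest of the 42 genes in that comparison, and the ratio of 2.58 had an interval of 1.95 to 3.43. Fh1, the fumarase, was the gene of the cycle not above 0 in both antibodies at 4 h, with 37.0 and 31.8 FPKM in the Sham and 4 h IgG libraries. The summed FPKM of the 12 genes was 771 in Sham, 1039 at 4 h and 1064 at 24 h for IgG and 579.9, 1040.1 and 683 for anti-EZH2.

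Other genes of the pathway were taken from a list of 78, of which 50 had a mean of at least 1 FPKM. At 4 h, 12 of the 50 were past 1.5-fold higher in both antibodies (8.72% of all genes) and 0 lower, and at 24 h 1 was higher (5.41%) and 0 lower. Relative to the median of all genes, 5 were higher (4.30%) and 1 lower (5.64%) at 4 h, and 2 higher (4.82%) and 0 lower at 24 h. By the limma test 0 of the 50 passed in either direction. Pdk4, a kinase that shuts off pyruvate dehydrogenase when fatty acids are burnt, had the largest difference of the list at 4 h. It was at 7.00, 53.0 and 19.6 FPKM for IgG and at 8.09, 43.3 and 9.87 for anti-EZH2. The ratio to Sham at 4 h was 7.58 (interval 4.94 to 11.6) and 5.36 (3.14 to 9.13), and at 24 h 2.80 (1.77 to 4.43) and 1.22 (0.680 to 2.19). Ppargc1a, a coactivator that raises mitochondrial genes, was at 4.01, 15.2 and 5.44 and at 4.27, 10.7 and 9.01, with 4 h ratios of 3.78 (1.82 to 7.85) and 2.52 (1.25 to 5.06). In both genes the 4 h library was the highest of its antibody. Ppara, the nuclear receptor that induces genes of fatty acid oxidation, was at 3.10, 2.40 and 2.26 FPKM for IgG and at 9.66, 8.65 and 7.26 for anti-EZH2, past 2-fold higher with anti-EZH2 in all 3 groups. Its ratios were 3.11, 3.60 and 3.21, and the interval of the last, 0.905 to 11.4, included 1. Over the 3 groups the log2 difference of Ppara was 1.41 (SE 0.22, limma adjusted p = 0.663). The share of all genes that met the rules by which Pdk4, Ppargc1a and Ppara were named was not counted.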

How the data were processed

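RIP-seq libraries of mouse left ventricle were analysed from 6 deposited tables, 1 for each library, with the FPKM of each gene and its interval, and from a deposited FPKM table of the whole series. The authors prepared stranded libraries (KAPA), sequenced them on an Illumina instrument and mapped the reads to mm10 with TopHat2; the program and annotation behind the FPKM are not given in the sources used here. Groups were taken from the labels. The 42 genes, the other lists and the rule for the genes named were chosen with earlier results of these data known. All 42 may be named. All 6 values are given for genes past 2-fold between the antibodies in a group or past 1.5-fold between AngII and Sham the same way in both antibodies, for 8 isoform pairs and for the 3 highest genes. Of other pathway genes, those past 2-fold between the antibodies in all groups, or between AngII and Sham in both antibodies, were named. Dlat and the genes past a fold with 1 antibody were named after their values were seen.

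Each table had 46165 rows, and 45786 features remained after rows on patch scaffolds were dropped and repeated identifiers merged. Values below 0.001 FPKM were set to 0. Tests and counts used log2(FPKM + 1) and the 8636 features with a mean FPKM of at least 1; 2 of the 42 genes (Slc2a1 and Pfkfb1) were below it and were counted by fold only. The antibody effect was fitted with limma 3.58.1 (R 4.3.3, trended prior variance, group as block, Benjamini-Hochberg). The 3 groups are treated there as replicates of the antibody effect. AngII against Sham has 1 library per arm and was given no test. Depth was recovered from low FPKM values, with an assumed mean fragment length. Of these values, 73.7% to 80.3% came out whole to within 0.1 fragments, against 20% by chance at a depth not fitted to them. The depth was fitted to make these values whole, so the 20% is not the chance level of a fitted share. No count test was run. Deposited interval half-widths were taken as 2 standard errors. Pseudogene copies were found with BLAST 2.17.0 in GENCODE M21. Python 3.11.15, numpy 2.4.6, pandas 2.3.3 and matplotlib 3.10.9 were used, and the procedures were tested on simulated data. Alternatives were another scaling, pseudocounts, filters, folds, the interval rule, the series table and other fits. Scaling to cardiomyocyte markers and adding pseudogene copies were chosen after the data were seen.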

Additional observations from a re-analysis of the deposited data

Results flagged for a closer look

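Gbe1 was past 1.5-fold in opposite directions at the 2 times in the IgG libraries, with a log2 difference from Sham of 0.76 at 4 h and -0.63 at 24 h. The difference between the times was not tested, since each is 1 library. The values were 1.16 FPKM in Sham, 2.66 at 4 h and 0.396 at 24 h, and the interval of each ratio included 1 (0.913 to 5.72 at 4 h). In the anti-EZH2 libraries the differences were 0.67 and 0.03. No group had the 4 samples that a check for outlying samples needs.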

How the results depend on the processing

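The alternatives with no printed value below left the counts within 1.5 times. Anti-EZH2 against IgG, past 2-fold lower in Sham (1) became 0 relative to the median of all genes, with the intervals apart or relative to the cardiomyocyte markers, and 6 at 1.5-fold; at 4 h (0) it became 4 at 1.5-fold; at 24 h (6) it became 2 relative to the median, 2 with a mean FPKM of at least 5, 0 in the series table, 3 with the intervals apart, 1 relative to the markers and 20 at 1.5-fold. Past 2-fold higher at 24 h (0) became 1 relative to the median, with a pseudocount of 0.1, relative to the markers or at 1.5-fold, and 3 in the series table.

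AngII against Sham, past 1.5-fold higher, in the order 4 h IgG, 4 h anti-EZH2, 24 h IgG, 24 h anti-EZH2, both at 4 h and both at 24 h (14, 24, 12, 3, 10 and 3), became 4, 6, 25, 24, 3 and 21 in the series table, 1, 3, 1, 1, 0 and 0 at 2-fold, and 1, 1, 1, 3, 0 and 0 relative to the markers. Relative to the median, 4 h IgG, 4 h anti-EZH2, 24 h IgG and both at 4 h became 7, 10, 5 and 1. For lower (1, 1, 2, 3, 0 and 0), it was 2 in both 4 h comparisons and 1 in both together with a pseudocount of 0.1, 0 at 4 h anti-EZH2, 0 at 24 h IgG and 1 at 24 h anti-EZH2 with a mean of at least 5, 0, 0, 0 and 1 with the intervals apart, 4 and 4 at 4 h and 2 in both together relative to the markers, 0 at 4 h IgG, 4 h anti-EZH2 and 24 h IgG at 2-fold, and 2 at 4 h IgG and 1 in both at 24 h in the series table. The series table was scaled separately, and the median of its genes differed by 0.44 and 0.46 (log2) between AngII 24 h and Sham; the 42 genes in it had medians of 0.77 and 0.93 there, and of 0.09 and 0.30 at 4 h.

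By limma, 0 of the genes tested from the list passed in any of the 11 fits, which held 40 of the 42, or 42 without the filter, 38 in the series table and 35 with a mean of at least 5. Of all genes 2 passed, 4 without the group as a block, and 0 relative to the median, without the filter, in the series table or without any one pair (0 to 0). The unadjusted count of 1 lower became 0 relative to the median or in the series table, 2 with a mean of at least 5, and 0 to 1 with one pair left out (0 without the Sham pair). No called difference of a gene changed sign relative to the median, with a pseudocount of 0.1 or in the series table. The 8 median isoform ratios stayed within their range over libraries in the series table, with the exception of Pfkfb2, which has no value there. The 8 genes with under 20 effective fragments are those whose differences the depth limits most.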
